A study of Mus musculus with 9 samples.

Results

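The Pax family of paired-box genes (Pax1 to Pax9) was examined in RING1B ChIP-seq peak lists of Eed-/- and Eed+/+ mouse embryonic stem cells (mESCs). Its peaks were those whose deposited nearest gene was exactly one of the 9 members. This gave 16 of the 1810 Eed-/- peaks, at 7 of the genes, and 21 of the 2347 Eed+/+ peaks, at 8 of the genes, or 37 peaks of 4157. Both kinds of cell are labelled as C57BL/6 embryonic stem cells, and both were grown in leukaemia inhibitory factor on inactivated embryonic fibroblasts. Eed-/- cells are constitutive mutants that lack H3K27me3, the histone mark made by PRC2, and Eed+/+ cells are the wild type. The comparison asks where RING1B remains at these genes when EED is missing. The Eed-/- immunoprecipitate held 70343706 mapped tags in 3 pooled lanes and the Eed+/+ immunoprecipitate 16814546 in 1 lane, a difference in depth of 4.18 times. There is 1 list per genotype and no replicate error, so no difference between genotypes or genes was tested.

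Pax proteins are transcription factors that bind DNA through the paired domain and specify organs and cell lineages in the embryo. Their genes are mostly silent in mESCs and are classic targets of the Polycomb complexes. PRC1 holds RING1B, the ligase that adds ubiquitin to histone H2A, and PRC2 needs EED to methylate lysine 27 of histone H3 (H3K27me3). CBX subunits of PRC1 bind that methyl mark, and both complexes occupy CpG islands, which are stretches of DNA that keep a high density of CG dinucleotides.

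The DNA under the summits (the positions of highest tag density) is shown for 8 peaks, to let the CpG-rich sites be set beside the exceptions. Each line is the plus strand of mm9, 200 bases centred on the summit, with every CG dinucleotide in capitals. The first 4 are Eed-/- summits at Pax2 (chr19:44833439-44833638, 15 CG), Pax3 (chr1:78213793-78213992, 27 CG), Pax5 (chr4:44716556-44716755, 21 CG) and Pax9 (chr12:57797892-57798091, 14 CG).
Pax2 Eed-/-: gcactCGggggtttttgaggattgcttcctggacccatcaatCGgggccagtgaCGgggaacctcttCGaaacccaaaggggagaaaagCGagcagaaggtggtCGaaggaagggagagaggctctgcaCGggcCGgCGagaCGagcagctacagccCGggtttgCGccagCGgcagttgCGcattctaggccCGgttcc
Pax3 Eed-/-: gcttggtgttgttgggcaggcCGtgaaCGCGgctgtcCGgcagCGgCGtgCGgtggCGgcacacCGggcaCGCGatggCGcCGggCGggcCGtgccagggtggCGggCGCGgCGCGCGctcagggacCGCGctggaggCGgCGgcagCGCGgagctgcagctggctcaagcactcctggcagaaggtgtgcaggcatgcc
Pax5 Eed-/-: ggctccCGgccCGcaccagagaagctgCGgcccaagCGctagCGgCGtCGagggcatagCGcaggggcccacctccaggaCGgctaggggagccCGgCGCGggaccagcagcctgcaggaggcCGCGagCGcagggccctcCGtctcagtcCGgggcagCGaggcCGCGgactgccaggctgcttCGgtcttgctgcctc
Pax9 Eed-/-: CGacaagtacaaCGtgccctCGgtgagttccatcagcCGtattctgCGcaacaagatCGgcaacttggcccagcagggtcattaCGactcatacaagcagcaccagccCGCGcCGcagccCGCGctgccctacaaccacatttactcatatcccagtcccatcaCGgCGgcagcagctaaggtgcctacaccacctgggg
The next 2 are the Eed-/- summits of the family whose peaks touched no CpG island, at Pax1 (chr2:147188273-147188472, 4 CG) and in an intron of Pax7 (chr4:139312511-139312710, 1 CG). The Pax7 stretch is a repeat of CA, a dinucleotide it holds 69 times.
Pax1 Eed-/-: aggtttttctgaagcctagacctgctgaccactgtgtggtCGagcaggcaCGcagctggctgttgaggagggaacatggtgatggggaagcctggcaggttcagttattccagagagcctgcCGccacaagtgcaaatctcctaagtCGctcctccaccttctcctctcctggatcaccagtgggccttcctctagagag
Pax7 Eed-/-: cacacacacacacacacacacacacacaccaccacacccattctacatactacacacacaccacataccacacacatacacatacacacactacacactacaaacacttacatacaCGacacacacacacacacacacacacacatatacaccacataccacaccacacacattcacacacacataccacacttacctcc
The last 2 are summits of Eed+/+ peaks over a start site that no Eed-/- peak overlapped, at Pax3 (chr1:78192925-78193124, 11 CG) and Pax8 (chr2:24329794-24329993, 21 CG).
Pax3 Eed+/+: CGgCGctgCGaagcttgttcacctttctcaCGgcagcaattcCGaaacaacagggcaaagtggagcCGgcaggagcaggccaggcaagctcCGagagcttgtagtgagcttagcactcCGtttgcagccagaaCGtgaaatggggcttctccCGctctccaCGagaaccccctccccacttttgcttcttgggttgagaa
Pax8 Eed+/+: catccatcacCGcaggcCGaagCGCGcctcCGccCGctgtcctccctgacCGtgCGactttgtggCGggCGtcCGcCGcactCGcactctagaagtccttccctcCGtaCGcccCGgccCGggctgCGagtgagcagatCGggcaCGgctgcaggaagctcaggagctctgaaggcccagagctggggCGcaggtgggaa

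RING1B was called at 7 Pax genes in Eed-/- cells (Pax1, Pax2, Pax3, Pax5, Pax6, Pax7 and Pax9) and at these and Pax8 in Eed+/+ cells. Pax4 had no peak in either list. Pax2 had 5 Eed-/- and 6 Eed+/+ peaks, and Pax3 had 1 Eed-/- and 6 Eed+/+ peaks. Pax5 had 3 peaks in each list and Pax9 had 1 in each. Pax7 had 3 Eed-/- peaks and 1 Eed+/+ peak, Pax6 had 2 Eed-/- peaks and 1 Eed+/+ peak, and Pax1 had 1 Eed-/- and 2 Eed+/+ peaks. The Eed-/- peaks covered 35275 bp in all and the Eed+/+ peaks 101099 bp.

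**Figure D1:**
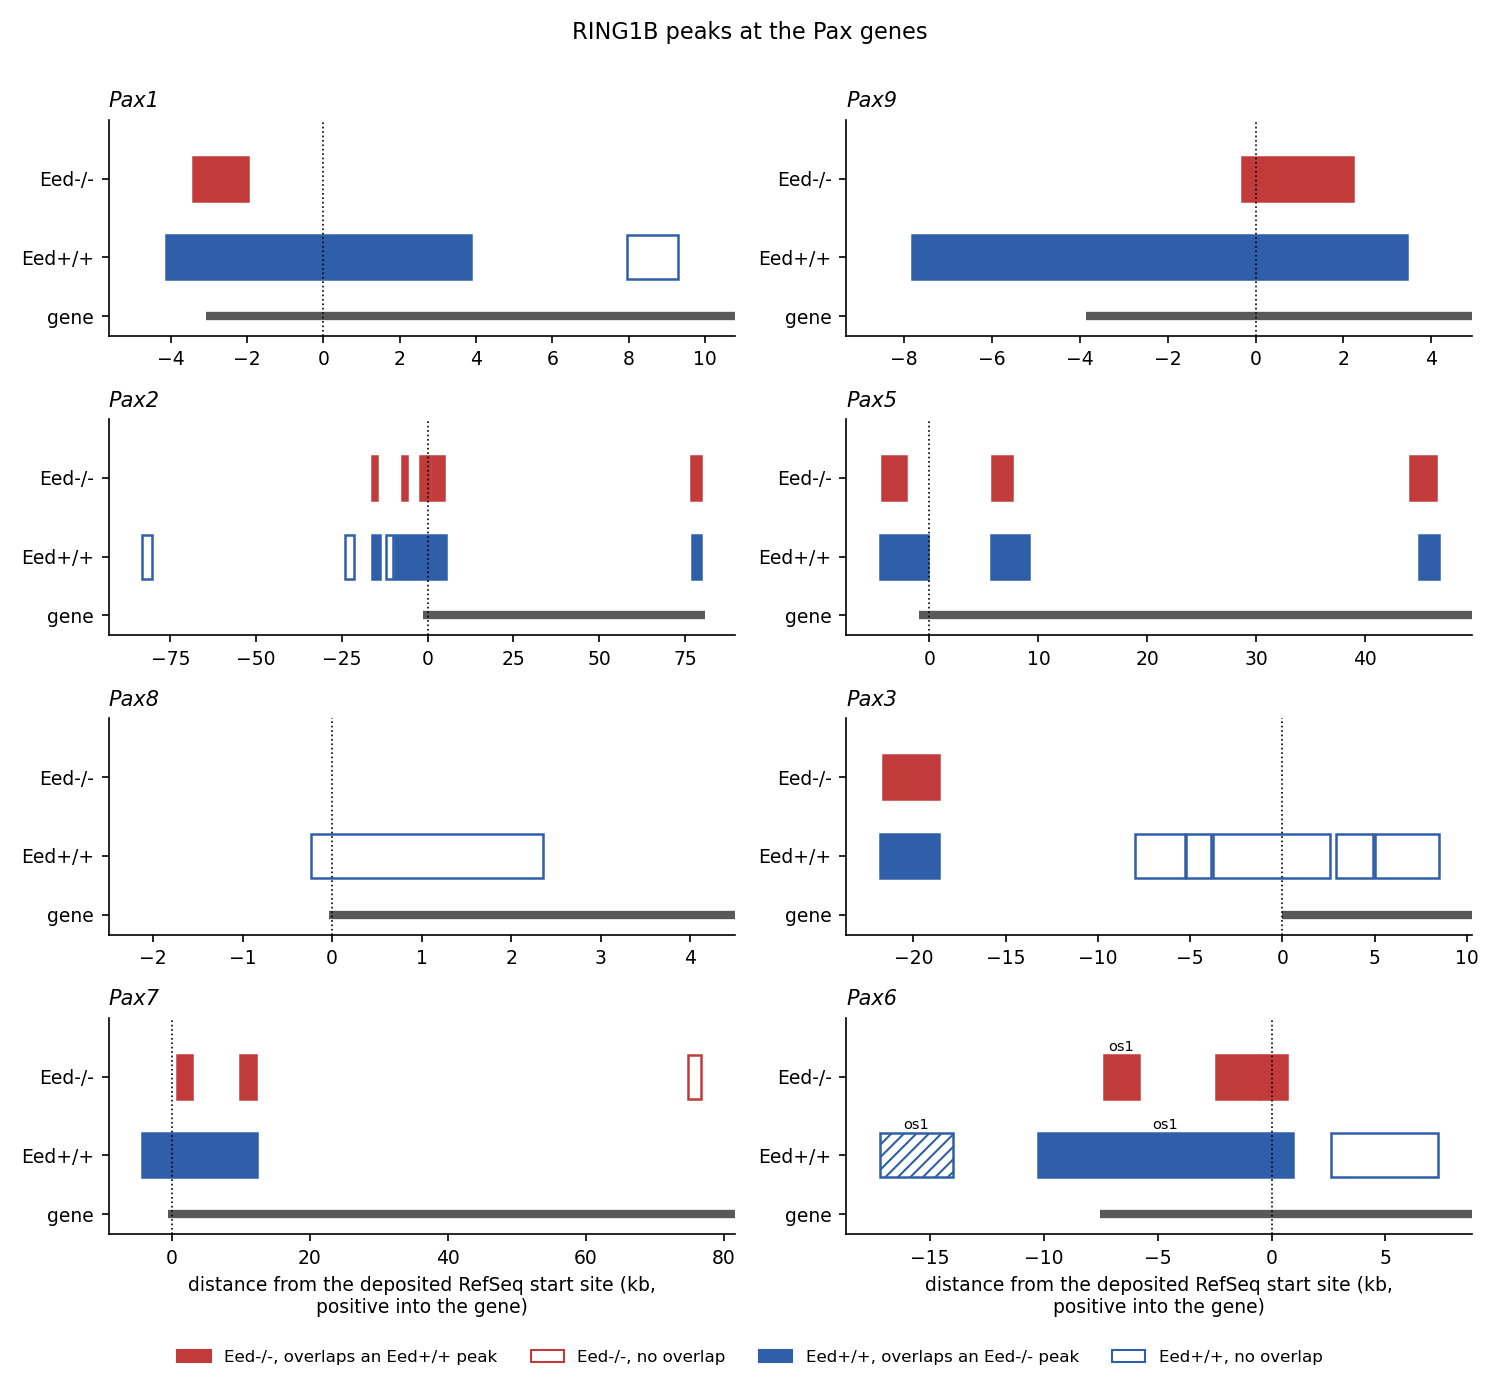
RING1B peaks by gene, drawn as boxes along the distance from the deposited RefSeq start site (x axis, kb, positive into the gene), with Eed-/- peaks above Eed+/+ peaks and the annotated gene as a grey bar cut at the panel edge. Filled boxes share at least 1 bp with a peak of the other genotype. Boxes marked os1, hatched where not overlapped, have Pax6os1 as their deposited nearest gene. In Eed-/- cells 15 of 16 boxes are filled and in Eed+/+ cells 10 of 21.

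Nearly every Eed-/- Pax peak lay at a site that was also called in Eed+/+ cells. Of the 16 Eed-/- peaks, 15 shared at least 1 bp with an Eed+/+ peak of any gene (93.8%, exact 95% binomial interval 69.8 to 99.8), beside 73.1% of all Eed-/- peaks. Of the 21 Eed+/+ peaks, 10 had an Eed-/- peak at the same place (47.6%, interval 25.7 to 70.2), beside 53.1% of all Eed+/+ peaks. Both intervals hold the share over all peaks, but they cover counting error only and treat peaks as independent. Several peaks share a gene, and 3 Eed-/- peaks of Pax2 lie in 1 Eed+/+ peak, so the intervals are no test. The Eed-/- peaks were mostly nested in broader Eed+/+ peaks, since 13 of 16 lay wholly inside 1 Eed+/+ peak (81.2%, beside 43.4% of all Eed-/- peaks). The reverse held for 1 of 21 Eed+/+ Pax peaks, the one at the 3′ end of Pax2 (5.5% of all Eed+/+ peaks). Eed-/- peaks covered 28.8% of the bases of the Eed+/+ Pax peaks, beside 42.4% over the whole list. When an overlap of at least 50% of both peaks was required, 6 of 16 Eed-/- Pax peaks (37.5%) still had a partner, beside 58.3% of all Eed-/- peaks, and so did 6 of 21 Eed+/+ Pax peaks (28.6%), beside 45% of all Eed+/+ peaks.

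RING1B levels were lower in Eed-/- cells at every Pax site called in both. The level is the number of tags per kb of peak per 1000000 mapped tags, with no subtraction of input. In the 10 pairs, each an Eed+/+ peak set beside the Eed-/- peak with the longest overlap, the median level was 1.26 in Eed-/- cells (range 0.972 to 1.57) and 8.09 in Eed+/+ cells (range 3.43 to 12.9). The ratio of Eed-/- to Eed+/+ level had a median of 0.157 (0.120 to 0.330), beside 0.225 over all 1247 pairs. Over all pairs the median levels were 1.33 in Eed-/- cells and 5.78 in Eed+/+ cells. The lower Pax ratio thus went with a higher Eed+/+ level and a similar Eed-/- level. Eed-/- cells had the lower value in 10 of 10 Pax pairs and in 1247 of 1247 pairs overall (100%), so the direction is not particular to the family. The ratio was highest at the 3′ end of Pax2 and lowest at the distal Pax3 site. That Pax3 site had an Eed-/- level of 1.55, above the median of the Pax pairs.

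**Figure D2:**
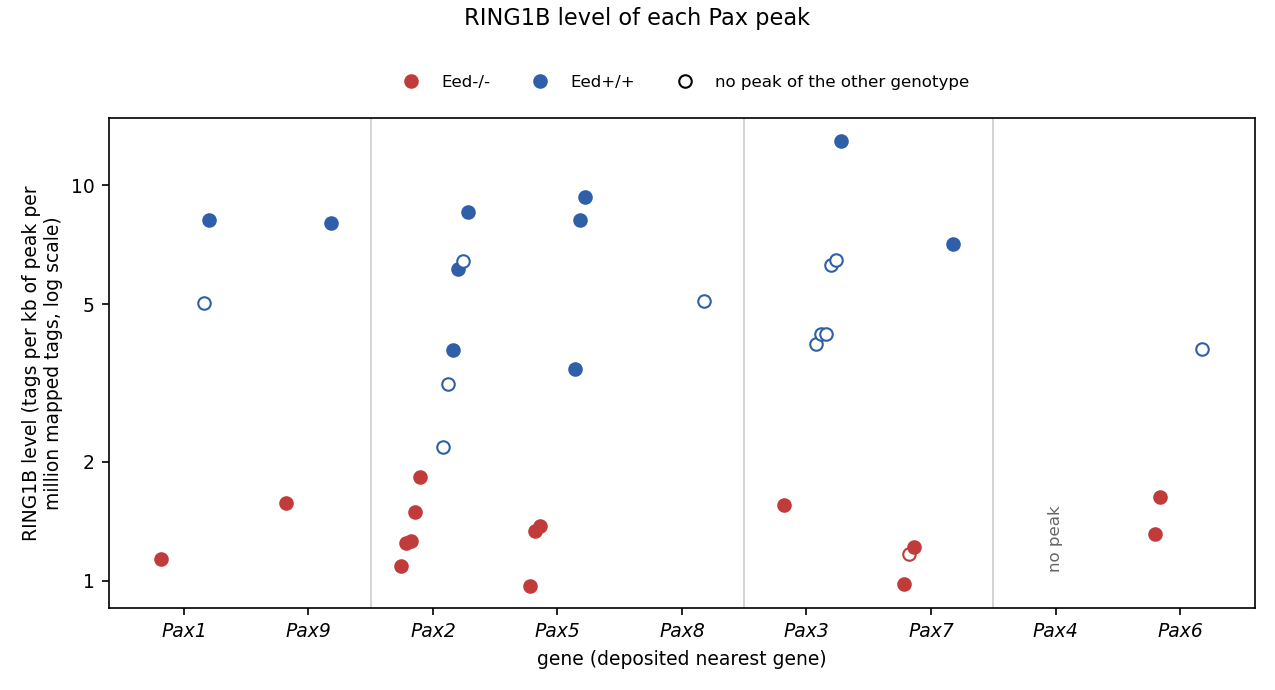
RING1B level of each Pax peak (y axis, tags per kb of peak per 1000000 mapped tags, log scale) by deposited nearest gene, with Eed-/- peaks to the left of Eed+/+ peaks at each gene. Open circles have no overlapping peak in the other genotype. The 16 Eed-/- peaks lie between 0.972 and 1.83 and the 21 Eed+/+ peaks between 2.18 and 12.9, so the ranges do not overlap.

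The depth and the caller's threshold moved with these levels. Every listed peak held more than 100 tags, a minimum that corresponds to a lower level in the deeper Eed-/- library. The Eed-/- Pax peaks held 115 to 377 tags, with a median of 174.5. Scaled to the Eed+/+ depth they would hold 27.5 to 90.1 tags, so that 0 of 16 would exceed 100, beside 6.63% of all Eed-/- peaks. A false discovery rate (FDR) of at most 1% was reached by 8 of 16 Eed-/- Pax peaks (24.1% of all Eed-/- peaks) and by 21 of 21 Eed+/+ Pax peaks (99.9% of all Eed+/+ peaks). Without the scaling to mapped tags the median level ratio of the Pax pairs was 0.659, and with scaling but without division by peak width it was 0.081. The part of depth and threshold in the numbers of peaks was not tested.

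**Figure D3:**
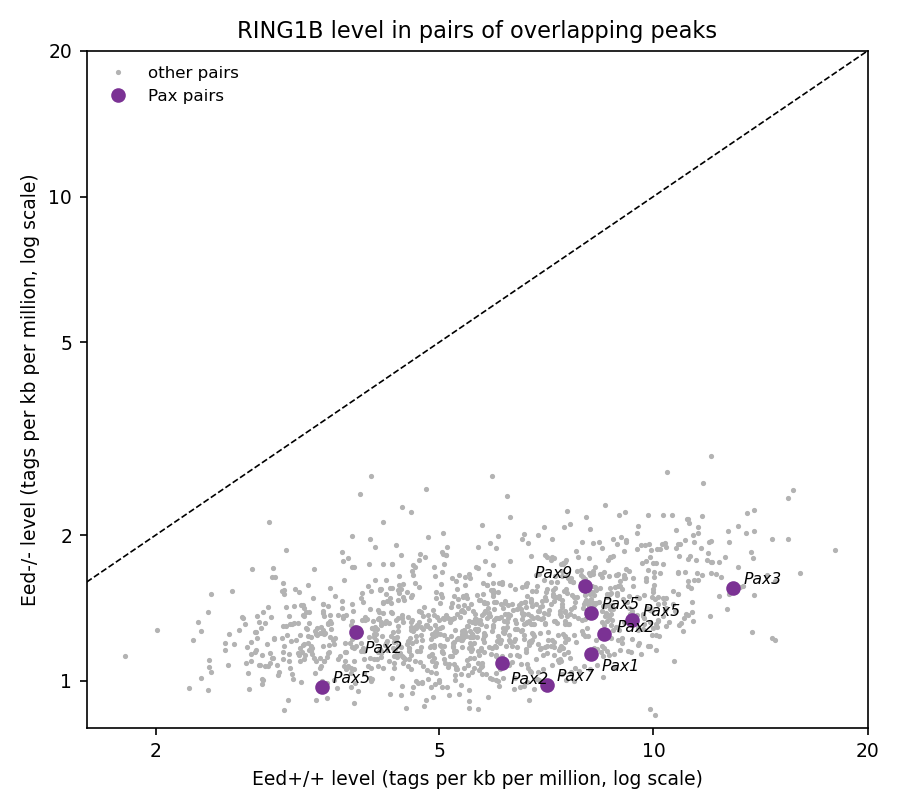
RING1B level in Eed-/- cells (y axis) against Eed+/+ cells (x axis), both in tags per kb of peak per 1000000 mapped tags on log scales, for 10 Pax pairs (purple, named) and the other pairs of overlapping peaks (grey). The dashed line marks equal levels. All pairs lie below it, and the Pax pairs have a median ratio of 0.157, beside 0.225 for all 1247 pairs.

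Pax1 and Pax9 encode the closely related factors that pattern the sclerotome, from which vertebrae form, and Pax9 is also needed for teeth and pharyngeal pouch organs. The single Eed-/- peak at Pax1 (chr2:147187312-147188749, mm9) held 115 tags at a level of 1.14 and a fold enrichment over background of 4.06. It lay inside an Eed+/+ peak (chr2:147186594-147194606) of 1100 tags, level 8.16 and fold enrichment 21.1, which was 8013 bp wide and covered exons 1 to 4. The summits lay 3191 bp apart, the largest distance among the Pax pairs. The Eed+/+ peak took in the start site of Pax1 and its CpG island of 1498 bp. The Eed-/- peak ended upstream of both, over a coding exon of another annotated Pax1 transcript, and touched no island. It contained the RefSeq start site of the noncoding transcript AI646519, at 147188529 on the minus strand. The second Eed+/+ peak, at the last exon of Pax1 (chr2:147198680-147200013, level 5.04), had no Eed-/- peak.

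At Pax9 the Eed-/- peak stayed at the start of the gene. It ran over 2525 bp (chr12:57796320-57798844), covered exons 1 and 2, and held 279 tags at a level of 1.57 and a fold enrichment of 6.86. The Eed+/+ peak was 11265 bp wide (chr12:57788803-57800067), with 1517 tags, a level of 8.01 and a fold enrichment of 43.3. The summits were 55 bp apart, over a CpG island of 787 bp at the second exon, from which the Pax9 sequence above is taken. The Eed+/+ peak reached back over both RefSeq starts of the noncoding transcript Gm15524, where no Eed-/- peak was called.

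Pax2, Pax5 and Pax8 form another subfamily, in which Pax2 acts in kidney, ear and the midbrain-hindbrain boundary, Pax5 in B cells and Pax8 in thyroid and kidney. Pax2 had the most Eed-/- peaks of the family. Its broad Eed+/+ peak (chr19:44822450-44837348) spanned 14899 bp from upstream of the gene to exon 3, with 2137 tags, a level of 8.53 and a fold enrichment of 58.2. Inside it the Eed-/- list had 3 separate peaks. The strongest lay over the start site (chr19:44829547-44832481) and held 377 tags, at a level of 1.83 and a fold enrichment of 7.52, the highest of any Eed-/- Pax peak by all 3 measures. Its summit fell at 44831650 and that of the broad Eed+/+ peak at 44831647. The other Eed-/- peaks inside lay upstream (chr19:44824391-44825788, 147 tags, level 1.49) and over exons 2 and 3 (chr19:44833274-44836666, 298 tags, level 1.25). Each of the 3 touched its own CpG island, of 231, 1931 and 492 bp from upstream to downstream, and the deposited Eed+/+ list joins all 3 in a single peak.

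Outside that domain, Pax2 had a pair upstream and a pair at its far end. Upstream, an Eed-/- peak at chr19:44815654-44817155 (115 tags, level 1.09) lay in an Eed+/+ peak at chr19:44815524-44817996 (255 tags, level 6.13), with summits 17 bp apart. At the far end, the Eed-/- peak at chr19:44908526-44911612 covered exons 10 and 11, with 274 tags and a level of 1.26, and the Eed+/+ peak at chr19:44908811-44911514 had 174 tags and a level of 3.83. Here the Eed-/- peak was the wider one, at 3087 bp against 2704 bp in Eed+/+ cells, and the level ratio of 0.330 was the highest of the family. Both peaks hold an island of 1043 bp and the RefSeq start site of the noncoding transcript 1700039E22Rik on the opposite strand, at 44910428. The 3 Eed+/+ peaks of Pax2 with no Eed-/- peak had their centres 81777, 22812 and 11101 bp upstream of the start site. Their levels were 2.18, 3.15 and 6.43. The last of them (chr19:44819701-44821863) holds a further RefSeq start site of Pax2, at 44821091, where no Eed-/- peak was called.

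Pax5 was the only member with more than 1 Eed+/+ peak at which every Eed+/+ peak was overlapped. Upstream of the start site, the Eed-/- peak (chr4:44725438-44727676) had a level of 1.38 and the Eed+/+ peak (chr4:44723446-44727874) a level of 8.18. The Eed+/+ peak also reached exon 1, which the Eed-/- peak did not. Another pair lay over noncoding exon sequence of Pax5, 6644 bp into the gene by the centre of its Eed-/- peak. There the Eed-/- peak (chr4:44715732-44717602) had a level of 1.34 and the Eed+/+ peak (chr4:44714201-44717695) one of 9.32. This site had the highest GC content of the Eed-/- Pax peaks, 65.6%, and an island of 1593 bp. In an intron 45325 bp from the start site, the Eed-/- peak (chr4:44676795-44679177) had a level of 0.972 and the Eed+/+ peak (chr4:44676538-44678412) one of 3.43, the lowest level in both genotypes among the pairs. At that site too the Eed-/- peak was wider, at 2383 bp against 1875 bp in Eed+/+ cells.

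Pax8 was called in Eed+/+ cells alone. Its peak (chr2:24328732-24331318) covered the start site and exons 1 and 2, with 221 tags, a level of 5.08 and a fold enrichment of 13.1. Its summit window held 21 CG dinucleotides and the peak touched an island of 320 bp. In Eed-/- cells the peak nearest to the Pax8 gene was 285747 bp away and was assigned to Cacna1b. The absence of a peak is the absence of a call over 100 tags and is no measurement of the level at the site.

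Pax3 and Pax7 act in neural crest, dorsal neural tube and muscle progenitors, and Pax7 marks the satellite cells of adult muscle. At Pax3 the start site was not called in Eed-/- cells and a distal site was. In Eed+/+ cells 5 peaks followed each other from 78185225 to 78201690 on chromosome 1, separated by gaps shorter than any of them, and together spanned the first 4 exons and the upstream region. The peak over the start site (chr1:78191154-78197463) had 687 tags, a level of 6.48 and a fold enrichment of 17.5. The other 4 had levels of 3.96, 4.21, 6.27 and 4.20 from the gene body outward. No Eed-/- peak overlapped any of the 5, and the nearest Eed-/- peak lay 18625 bp from the gene.

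That distal Eed-/- peak (chr1:78212334-78215356) had 330 tags, a level of 1.55 and a fold enrichment of 7.31, rank 133 of 1810. The Eed+/+ peak there (chr1:78212308-78215537) had 703 tags, a level of 12.9 and a fold enrichment of 66.9, rank 13 of 2347. By level it was the highest Eed+/+ Pax peak. The peaks were nearly the same in outline, 3023 bp in Eed-/- cells and 3230 bp in Eed+/+ cells, with summits 17 bp apart, and the level ratio of 0.120 was the lowest of the family. The summit windows held 27 CG in the Eed-/- peak and 29 in the Eed+/+ peak, the most of any Pax peak in each list. Both peaks also contain the RefSeq start site of Gm2102, listed as protein-coding, at 78214845 on the minus strand, so their assignment to Pax3 rests on the nearest gene known to the deposited annotation. Without this site Pax3 would have 0 Eed-/- and 5 Eed+/+ peaks.

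Pax7 had the broadest Eed+/+ peak of the family (chr4:139376568-139393207), 16640 bp wide and rank 3 of 2347 by width. It had 1981 tags, a level of 7.08 and a fold enrichment of 43.8, and covered exons 1 to 4. In Eed-/- cells 2 peaks lay inside it, one over exon 2 (chr4:139385912-139388156, 155 tags, level 0.982) and one in an intron (chr4:139376747-139378975, 191 tags, level 1.22). Together they covered 26.9% of the Eed+/+ peak, and neither reached the start site. The Eed+/+ summit lay between them, in a window with 3 CG dinucleotides and outside each of the 4 islands in that peak. The third Eed-/- peak (chr4:139312191-139314095, 157 tags, level 1.17, fold enrichment 5.30, FDR 1.48%) was the only Eed-/- Pax peak with no Eed+/+ peak. It lay in an intron 75739 bp from the start site, touched no CpG island, had an observed to expected CpG ratio of 0.210, and its summit fell in the CA repeat shown above. Of all 487 Eed-/- peaks with no Eed+/+ peak, 85.8% touched an island.

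Pax4 and Pax6 share roles in the endocrine pancreas, and Pax6 is a central regulator of eye development. Pax4 had no peak within 100 kb in either list, the nearest being assigned to Zfp800 at 179517 bp in Eed-/- cells and 179398 bp in Eed+/+ cells. For Pax6 the nearest-gene rule split 1 locus between a gene and its antisense transcript. Its 2 Eed-/- peaks lay just upstream of the start site (chr2:105514158-105516028, 173 tags, level 1.31) and over it (chr2:105516073-105517303, 141 tags, level 1.63). The only Eed+/+ peak named Pax6 lay inside the gene over exons 2 and 3 (chr2:105519206-105523922, 306 tags, level 3.86) and had no Eed-/- peak. The Eed+/+ peak over the Pax6 start site (chr2:105506352-105517545, 1208 tags, level 6.42, fold enrichment 22.3) was assigned to Pax6os1, an antisense transcript whose start lies upstream of that Pax6 start site. It contained both Eed-/- Pax6 peaks and an Eed-/- peak assigned to Pax6os1 (chr2:105509246-105510798, 124 tags, level 1.14). ChIP tags carry no transcript strand, so peaks at the 2 start sites cannot be divided between the genes. With the Pax6os1 peaks counted for Pax6, a choice made after seeing the data, 16 of 17 Eed-/- peaks and 11 of 23 Eed+/+ peaks of the family overlapped.

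Most Pax peaks had their centre over 1 kb from the deposited start site. The centre lay within 1 kb of the deposited start site in 3 of 16 Eed-/- Pax peaks, beside 58.2% of all Eed-/- peaks, and in 2 of 21 Eed+/+ Pax peaks, beside 51.3% of all Eed+/+ peaks. The centre lay over 10 kb away in 6 of 16 Eed-/- Pax peaks (19.3% of all Eed-/- peaks) and in 7 of 21 Eed+/+ Pax peaks (19.7% of all Eed+/+ peaks). The deposited start site itself was covered by 3 of 16 Eed-/- Pax peaks, those of Pax2, Pax6 and Pax9, beside 62.5% overall. It was covered by 6 of 21 Eed+/+ Pax peaks, beside 61.8% overall. These 6 were the broad peaks of Pax1, Pax2, Pax3, Pax7 and Pax9 and the peak of Pax8. By gene, the start site was thus covered at 6 of the 8 Pax genes with an Eed+/+ peak. That of Pax6 lay in the Eed+/+ peak named Pax6os1. In Eed-/- cells it was covered at 3 of the 7 Pax genes with a peak. As several peaks share a gene, they are not independent, and these shares carry no test. With RefSeq start sites of the Pax gene itself also counted, the number stayed at 3 for Eed-/- Pax peaks and was 9 for Eed+/+ Pax peaks, which added 1 peak each at Pax2, Pax5 and Pax6. RefSeq start sites of other genes lay in 3 further Eed-/- Pax peaks, the AI646519, 1700039E22Rik and Gm2102 sites described above, and in 3 further Eed+/+ Pax peaks, those with the 1700039E22Rik and Gm2102 sites and a Pax3 peak with a start site of Gm33152.

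**Figure D4:**
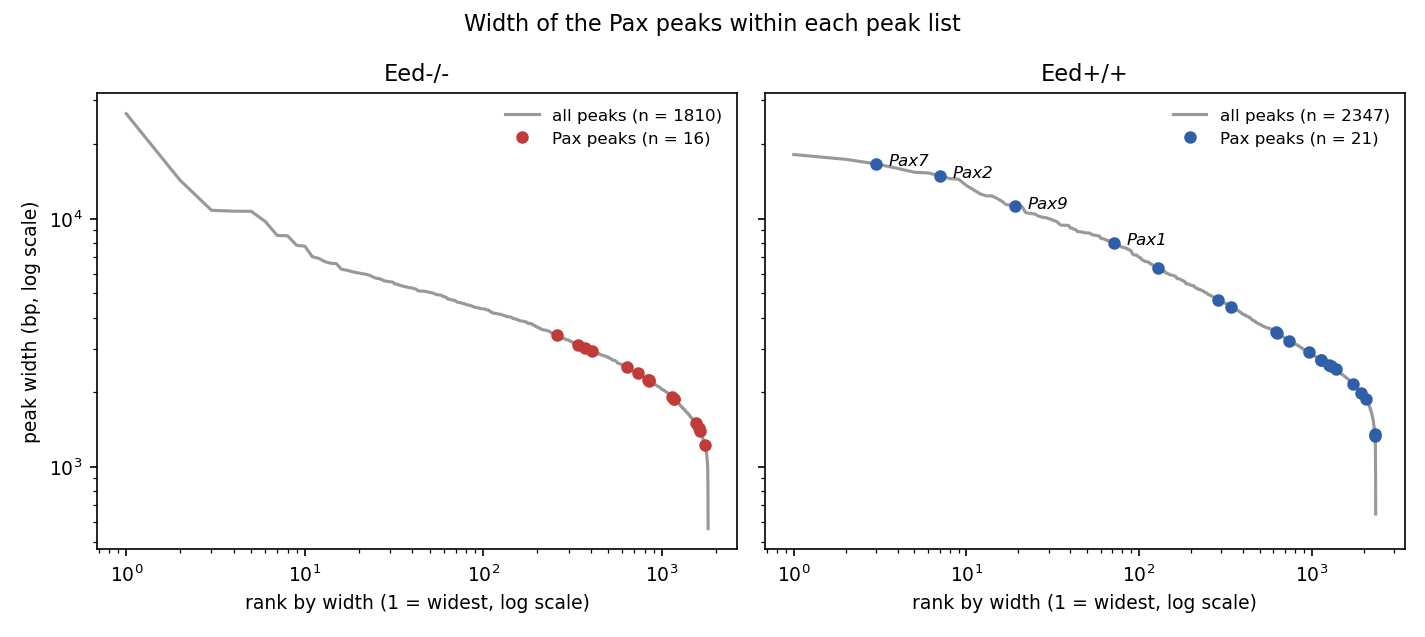
Peak width (y axis, bp, log scale) against rank by width (x axis, log scale) for all peaks of each list (grey line) and the Pax peaks (points), with Eed-/- on the left and Eed+/+ on the right. Eed-/- Pax peaks are 1231 to 3393 bp wide. The named Eed+/+ peaks of Pax7, Pax2, Pax9 and Pax1 rank 3, 7, 19 and 72 of 2347.

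The family held some of the broadest Eed+/+ peaks but none of the broadest Eed-/- peaks. The Eed-/- Pax peaks had a median width of 2234 bp (range 1231 to 3393), beside 2155 bp over the list. The Eed+/+ Pax peaks had a median width of 2893 bp (range 1334 to 16640), beside 2665 bp over the list. A width of at least 10 kb was found in 0 of 16 Eed-/- Pax peaks, beside 0.276% of all Eed-/- peaks, and in 3 of 21 Eed+/+ Pax peaks (Pax7, Pax2 and Pax9), beside 1.28% of all Eed+/+ peaks. Each of the 30 Eed+/+ peaks of this width in the whole list met an Eed-/- peak.

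Among the Eed+/+ Pax peaks, those with an Eed-/- peak had higher medians of level and of CG than those without, as in the whole Eed+/+ list. The 10 overlapped peaks had a median level of 8.09 and a median fold enrichment of 35.4, whereas the 11 others had medians of 4.21 for level and 14.6 for fold enrichment. The summit windows of the overlapped peaks held a median of 17 CG, against 13 in the others. Over the whole list the median levels were 5.78 for overlapped and 4.03 for other Eed+/+ peaks, and the median numbers of CG were 20 and 15.5 for the same groups. All 10 overlapped Pax peaks touched a CpG island, beside 99.4% of all overlapped Eed+/+ peaks, as did 8 of the 11 others, beside 88.1% of all Eed+/+ peaks without an Eed-/- peak. The 3 Eed+/+ Pax peaks without an island were 2 at Pax3 and the one at the last exon of Pax1. The ranges of level overlap, from 3.43 to 12.9 in overlapped peaks and from 2.18 to 6.48 in the others, and fold enrichment ordered some peaks differently, since the intron peak of Pax3 without an Eed-/- peak had a fold enrichment of 47.3 at a level of 3.96.

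**Figure D5:**
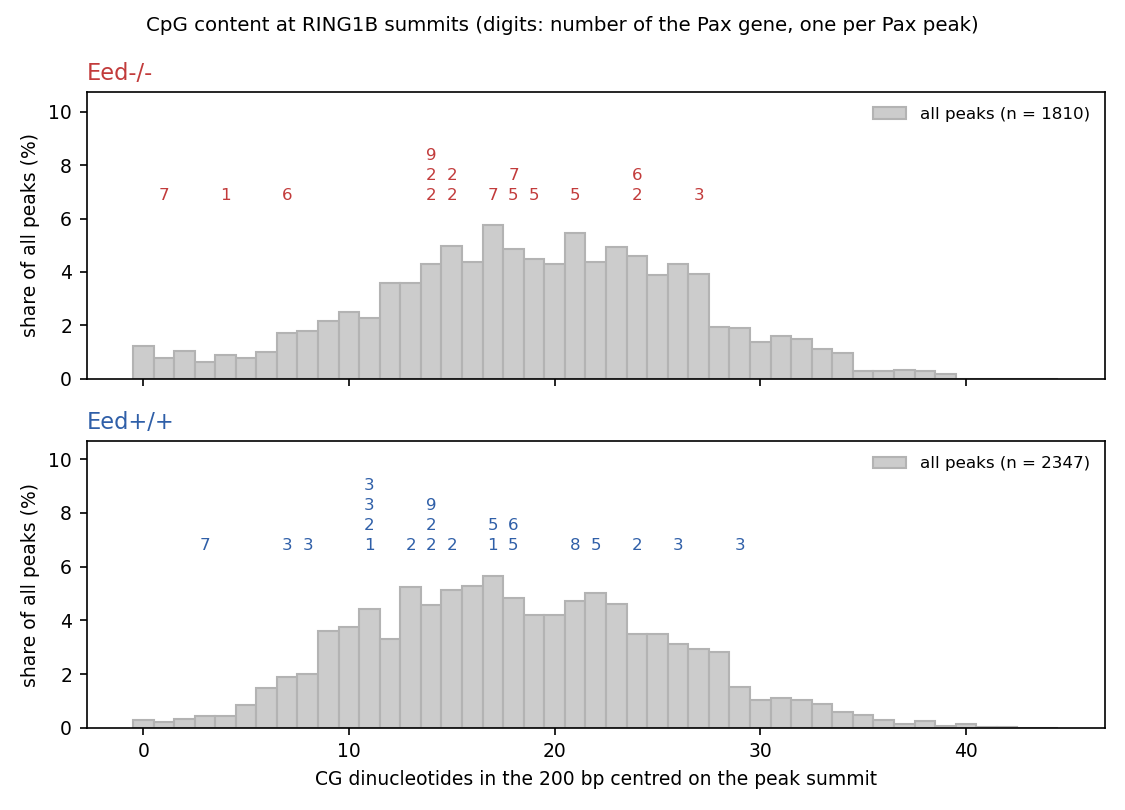
CG dinucleotides in the 200 bp centred on each summit (x axis) for all peaks (grey bars, share of peaks in percent on the y axis), with Eed-/- above Eed+/+. Each coloured digit is 1 Pax peak and gives the number of its gene, and digits are stacked above the bars only to be legible. The median is 16 for Eed-/- Pax peaks and 14 for Eed+/+ Pax peaks, beside 19 for all Eed-/- peaks and 18 for all Eed+/+ peaks.

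CpG islands were touched by 14 of 16 Eed-/- Pax peaks, beside 95.2% of all Eed-/- peaks, and by 18 of 21 Eed+/+ Pax peaks, beside 94.1% of all Eed+/+ peaks. The 200 bp around the summits held a median of 16 CG in Eed-/- Pax peaks and 14 in Eed+/+ Pax peaks, beside 19 in all Eed-/- peaks, 18 in all Eed+/+ peaks and a genome average of 1.67. The Eed-/- Pax peaks had a median GC content of 57.5% and the Eed+/+ Pax peaks, which are wider, one of 54.1%. Summits lay a median of 204.5 bp apart in the 10 pairs, beside 97 bp over all pairs, and 4 of 10 pairs had summits within 100 bp, beside 50.7% of all pairs. These distances depend on the pairing by longest overlap. It set the broad Pax2 Eed+/+ peak beside the Eed-/- peak over exons 2 and 3, with summits 1892 bp apart. The Eed-/- peak over the Pax2 start site, also inside that broad peak, had its summit at 44831650, against 44831647 in the Eed+/+ peak.

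Few genes had as many peaks as Pax2 and Pax3. With 6 Eed+/+ peaks each they were among 6 genes with at least 6, which included Bcor, Nr2f2 and Meis1, while 1630 of the 1920 genes in that list had 1 peak. With 5 Eed-/- peaks, Pax2 was among 4 genes with at least 5, beside Nlgn1, Rbmy1a1 and Cbx8. The genes most like Pax2 in their numbers of Eed-/-, Eed+/+ and overlapped Eed+/+ peaks included Tcfap2a, which encodes the factor AP-2 alpha (4 Eed-/- and 4 Eed+/+ peaks, 3 overlapped), and Polg (3 Eed-/- and 5 Eed+/+, 3 overlapped). Those most like Pax3 were Nr2f2 (2 Eed-/- and 7 Eed+/+, 1 overlapped), and Wnt10a and Sox1 (1 Eed-/- and 4 Eed+/+, 1 overlapped, in each). This likeness is over counts in 2 lists and no more. Other genes with a peak within 100 kb of a Pax gene were Pax6os1, Nkx2-9, a homeobox gene near Pax9 with fold enrichments of 4.73 in Eed-/- cells and 29.2 in Eed+/+ cells, and Klhdc7a near Pax7, with an Eed-/- peak only.

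Genes that act with the Pax factors were grouped in 11 lists by role, 97 genes in all. The lists were chosen with earlier results of these data known. The share of all annotated genes with a peak is not given here. Counts of list members with a peak therefore have no background beside them and show no enrichment. Of these, 53 were named in the Eed-/- list, 68 in the Eed+/+ list and 49 in both. The shared genes made up 92.5% of those named in the Eed-/- list and 72.1% of those named in the Eed+/+ list, beside 74.3% for all genes in the Eed-/- list and 61.5% for all genes in the Eed+/+ list. Of their 125 Eed+/+ peaks, 58 shared bases with one of the Eed-/- list (46.4%), beside 53.1% overall.

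Most genes of the kidney, sclerotome, tooth, spinal cord and midbrain-hindbrain lists carried peaks in both genotypes. Among kidney partners of Pax2 and Pax8, 8 of 12 genes had an Eed-/- peak and 10 an Eed+/+ peak, led in Eed+/+ fold enrichment by Gdnf, the ligand that induces the ureteric bud (4.36 in Eed-/- and 57.6 in Eed+/+ cells). Among sclerotome genes of Pax1 and Pax9, 5 of 9 had an Eed-/- peak and 7 an Eed+/+ peak, with Foxc2 at 70.4 in Eed+/+ cells and no Eed-/- peak, and Uncx at 7.01 in Eed-/- and 64.3 in Eed+/+ cells. Tooth and pharyngeal partners of Pax9 had Eed-/- peaks at 5 and Eed+/+ peaks at all 8 genes, led by Msx1 (7.45 in Eed-/- and 50.4 in Eed+/+ cells). Spinal cord progenitor genes had peaks at 7 of 8 genes in both lists, led by Nkx2-2 (5.35 in Eed-/- and 59.9 in Eed+/+ cells). Midbrain-hindbrain genes had them at 6 in Eed-/- and 7 of 8 in Eed+/+ cells, led by Wnt1 (5.06 in Eed-/- and 36.9 in Eed+/+ cells).

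Among eye and forebrain partners of Pax6, 10 of 13 genes had an Eed-/- peak and 10 an Eed+/+ peak, but only 8 had both. Six3 and Sox2, which encode an eye field factor and a pluripotency and neural factor, were named in the Eed-/- list alone, with fold enrichments of 6.00 and 3.82. Emx2, a cortical regulator, led this list (8.24 in Eed-/- and 62.8 in Eed+/+ cells). Sall1 of the kidney list and Hhex of the thyroid list were also named in the Eed-/- list alone, at 6.39 and 6.78. Genes of the role lists were counted by deposited name, so a gene missing from a list by name may still have a peak at its site. Overlaps were computed for all peaks whatever their name, but for these genes they are not listed here gene by gene. An Eed+/+ peak assigned to Six3os1 (start 86006833) did overlap an Eed-/- peak (start 86011750). Pancreatic partners of Pax4 and Pax6 had an Eed-/- peak at 5 and an Eed+/+ peak at 9 of 10 genes.

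The other 4 lists had Eed+/+ peaks at smaller shares of their members. Muscle targets of Pax3 and Pax7 had an Eed-/- peak at 1 and an Eed+/+ peak at 3 of 8 genes, led by Lbx1 (4.90 in Eed-/- and 71.9 in Eed+/+ cells). Myf5, Myf6 and Myog had none, whereas Myod1 and Dmrt2 had an Eed+/+ peak only, at 10.2 and 39.3. Neural crest and melanocyte genes had them at 3 of 9 in both lists, which were Zic1 (7.52 in Eed-/- and 80.1 in Eed+/+ cells), Tcfap2a and Foxd3. The B-cell list of Pax5 had an Eed-/- peak at 3 and an Eed+/+ peak at 5 of 10 genes, led by Ebf1 (6.40 in Eed-/- and 42.8 in Eed+/+ cells), and none at Cd79a or Blnk. The thyroid list of Pax8 had 3 of 6 in each genotype, led by Nkx2-1 (5.67 in Eed-/- and 63.7 in Eed+/+ cells).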

How the data were processed

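The 2 RING1B peak lists of the series were analysed. The CBX7 samples were not analysed here. The authors mapped tags to mm9 with Bowtie, kept unique positions, pooled the lanes where a genotype had several, called peaks with MACS and kept those with an FDR below 2% and more than 100 tags. They named the nearest gene with CisGenome. The library that MACS took as control is, like tool versions, not given in the sources used here. The 3 input samples of the series are all labelled as Eed+/+ cells, and none as Eed-/- cells. The deposited values, which are of mixed kinds other than read-count tables, are peak positions, raw tag counts, fold enrichment ratios over background, FDR in percent and the MACS score, a multiple of −log10 of the p-value that is not printed here. Mapped tags are those the study's methods state (70343706 for Eed-/-, 16814546 for Eed+/+ and 52569530 for input). Replicate numbers 1 to 3 in the labels stand for what the methods call lanes of Eed-/- and of input, so each genotype was 1 sample. The members, gene lists and measures were chosen with earlier results of these data known.

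Peaks overlapped at 1 bp or more. Levels are tags per kb of peak per 1000000 mapped tags. Intervals are exact (Clopper-Pearson, 95%), cover counting error only and treat peaks as independent. CpG islands were found on NCBIM37 (mm9) with a running score (17 for CG, −1 for any other base) with a minimum length of 200 bp, GC content of 50% and observed to expected CpG ratio of 0.6. Exons are from GENCODE M1. The RefSeq promoter windows of 300 bases (GRCm38.p6, 7 of 9 Pax genes present) were matched letter for letter to mm9, which gave the start sites named as RefSeq. "Deposited start sites" derive from the lists. Summit windows that held annotated untranslated sequence are not printed. All Pax genes were named, with, in each role list, up to 4 genes of highest Eed+/+ fold enrichment and those with Eed-/- peaks only, neighbours within 100 kb, and the 3 genes most like Pax2 and Pax3 in peak counts. Some genes under this rule are not reported here. The role list members named as having no peak were added after their values were seen. The overlap code and the island search were tested on simulated data. Python 3.11.15, numpy 2.4.6, scipy 1.17.1 and matplotlib 3.10.9 were used.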

Additional observations from a re-analysis of the deposited data

How the results depend on the processing

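For the numbers of Pax peaks, the overlaps and the median level ratio, 22 alternatives were run. Of these, 15 stayed within 1.5 times the main count or within its interval or spread, 7 moved and 0 reversed. These labels set each Pax value beside its own main value, not beside the share over all peaks. With an FDR of at most 1% in both lists, the Eed-/- Pax peaks numbered 8, and all 8 overlapped an Eed+/+ peak (100%, beside 85.8% of all Eed-/- peaks under that rule). Under the same rule 33.3% of the Eed+/+ Pax peaks were overlapped, beside 15.4% of all Eed+/+ peaks. The main shares were 47.6% and 53.1%, in the other order. With Eed-/- peaks kept only if they would exceed 100 tags at the Eed+/+ depth, 0 Eed-/- Pax peaks remained and 0 of 21 Eed+/+ Pax peaks (0%) were overlapped, beside 4.35% of all Eed+/+ peaks. With an overlap of 50% of both peaks, 37.5% of the Eed-/- Pax peaks overlapped, beside 58.3% of all Eed-/- peaks. The Pax share was then below that of the whole list, whereas at 1 bp it was above it (93.8% beside 73.1%). The median level ratio was 0.081 without division by peak width and 0.659 without scaling to depth. The depth rule and the FDR rule act by their construction on which peaks are left. Leaving out the scaling to depth multiplies each ratio by the depth ratio of 4.18. For the shifts under the 50% rule and without division by peak width the cause was not tested. Restricting peaks to within 10 kb of the gene gave 15 Eed-/- and 19 Eed+/+ peaks, and counting Pax6os1 with Pax6, an alternative chosen after seeing the data, gave 17 Eed-/- and 23 Eed+/+ peaks. No paired analysis was possible because each genotype has 1 list, and for the same reason leaving out replicates was not run. A site without a call had no more than 100 tags or missed the FDR limit, and its level is unknown.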
